A study of Mus musculus with 6 samples.

Results

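The promoter contact map of control mouse embryonic stem cells consisted of the loops that both Control libraries listed with identical ends. A loop was a pair of fragments, a captured promoter fragment (the bait) and the region it contacted (the other end), with a score deposited by the authors. Of 19045 loops listed in Control replicate 1 and 18220 in Control replicate 2, 6336 were shared and form the map, against 65807 different loops in the 6 libraries of the series together. Control cells were E14TG2a (E14) embryonic stem cells, a wild-type line from a male mouse grown on gelatin with serum and leukemia inhibitory factor, and were transfected with esiRNA (short RNAs cut from a long double strand) against EGFP and harvested 48 h later. Cells with esiRNA against Smarca4, the gene of the remodeller ATPase Brg1 (Brg1KD), and against Ino80 (Ino80KD) were treated in the same way, with 2 libraries per group. Control replicate 1 and the first replicate of both depletions belonged to batch 1, Control replicate 2 to batch 2 and the second replicate of both depletions to batch 3. All are 1 cell line, and nothing in the labels says whether replicates came from separate cultures, so any spread between libraries may be technical. Contacts are not expression, so the cell type and the depletions could not be checked from these data.

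Micro-C cuts crosslinked chromatin with micrococcal nuclease, joins the ends that lie close in the nucleus, and reads the joined pairs. Capturing the pairs that hold a promoter shows which regions promoters touch. Promoters are known to contact enhancers, other promoters, sites bound by the architectural protein CTCF and, in stem cells, distant regions that carry the repressive polycomb mark.

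Both lists began at a score of 5, so a loop absent from a list is not shown to be missing from the cells. The bait at chromosome 2 from 98661117 to 98662976 (mm10) held 1003 loops in Control replicate 1 and 884 in Control replicate 2, or 5.27% and 4.85% of the lists, and the authors' deposited list that joins both libraries lacked part of them (424 and 382). Its 76 shared loops, 73 of them to other chromosomes, were left out below. The remaining 6260 shared loops were 34.7% of the 18042 loops of Control replicate 1 and 36.1% of the 17336 of Control replicate 2. Within chromosomes there were 5073 (81.0%), and 1187 joined different chromosomes.

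The promoters below belong to baits with 10 or more shared loops and show how unlike such promoters were in sequence. H2ac10, a histone H2A gene, and Cd207, the gene of the Langerhans cell lectin langerin, had 12 and 10 shared loops, all within their chromosomes. Fau, a gene whose product is processed to a ribosomal protein, and Haus7, which encodes a subunit of the spindle complex augmin, had 22 and 17 shared loops to another chromosome. Bases are those before the start site that lie outside annotated genes, from RefSeq (GRCm38.p6, whose chromosomes are those of mm10), and capitals mark CCCTC or GAGGG, the core letters of the CTCF motif on either strand.
H2ac10 (plus strand, chr13:23533625-23533874): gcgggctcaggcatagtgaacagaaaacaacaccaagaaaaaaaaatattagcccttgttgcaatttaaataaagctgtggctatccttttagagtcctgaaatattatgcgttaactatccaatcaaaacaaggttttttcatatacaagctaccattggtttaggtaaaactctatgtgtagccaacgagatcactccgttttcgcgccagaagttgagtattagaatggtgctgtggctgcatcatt
Cd207 (minus strand, chr6:83677858-83678107): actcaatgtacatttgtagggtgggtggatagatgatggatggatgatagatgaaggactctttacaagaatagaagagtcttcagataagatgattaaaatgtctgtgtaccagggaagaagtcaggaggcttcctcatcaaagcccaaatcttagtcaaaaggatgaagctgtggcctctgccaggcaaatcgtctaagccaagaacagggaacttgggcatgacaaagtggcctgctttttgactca
Fau (plus strand, chr19:6057756-6057946): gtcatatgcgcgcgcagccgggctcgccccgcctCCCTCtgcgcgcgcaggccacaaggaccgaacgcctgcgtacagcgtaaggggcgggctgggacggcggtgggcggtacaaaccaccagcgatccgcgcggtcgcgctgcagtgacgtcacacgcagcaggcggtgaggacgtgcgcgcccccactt
Haus7 (minus strand, chrX:73459030-73459279): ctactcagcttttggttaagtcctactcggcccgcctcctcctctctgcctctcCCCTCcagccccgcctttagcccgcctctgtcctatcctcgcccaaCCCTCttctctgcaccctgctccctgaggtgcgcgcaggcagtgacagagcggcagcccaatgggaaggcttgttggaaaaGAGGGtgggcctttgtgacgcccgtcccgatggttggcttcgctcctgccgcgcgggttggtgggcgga

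H2ac10 and Cd207 held 0 such matches in these bases and had a GC content of 38.4% and 43.6%. Fau held 1 match and Haus7 held 3, with 72.3% and 64.4% GC. These letters are common. They occur in the 250 bases before the start site in 60.5% of 32851 promoters of the table, in 66.8% of the 11869 baits with a start site and in 72.1% of the 43 baits with a start site and 5 or more shared loops within the chromosome. Median GC content over these baits was 52.8%, against 55.2% for all baits with a start site and 56.0% for the 38 with 5 or more shared loops to other chromosomes. The GC box GGGCGG (or CCGCCC on the other strand) was in 46.5% and 57.9% of these promoter groups, against 44.6% of all baits with a start site. The low GC content of H2ac10 and Cd207 was thus not shared by the median of their group, and 0 matches were not particular to it: Las1l, with 12 shared loops to other chromosomes, held 0 in its 179 bases, at 54.7% GC.

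Shared loops within a chromosome had a median span of 184 kb, measured between the middles of both ends. The quartiles were 70.1 and 351 kb, and the longest reached 85.2 Mb. Loops listed in 1 Control library only were longer, with medians of 282 kb in Control replicate 1 and 343 kb in Control replicate 2. By class, 1063 shared loops (21.0%) spanned under 50 kb, 2082 (41.0%) from 50 to 250 kb, 1643 (32.4%) from 250 kb to 1 Mb, 215 from 1 to 10 Mb and 70 over 10 Mb. The share of listed loops that were in the other Control list too was smaller at longer spans up to 10 Mb. It was 55.4% and 59.4% for loops under 50 kb in the 2 libraries, 36.0% and 44.2% from 50 to 250 kb, 26.1% and 25.7% from 250 kb to 1 Mb, and 20.0% and 19.3% from 1 to 10 Mb. For loops over 10 Mb it was 29.2% and 18.2%. It also depended on the score, from 20.2% and 23.9% at scores of 5 to 6 to 88.1% and 86.4% at 15 or more. Loops are not replicates, and no test was made of these differences.

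**Figure D1:**
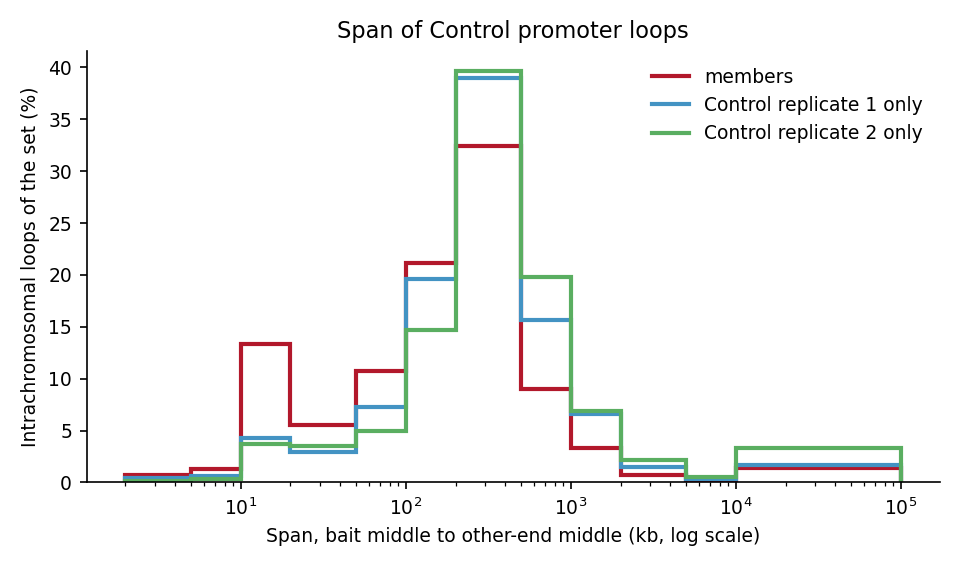
Span of intrachromosomal loops on a log scale (x, kb) against the percent of the loops of each set (y), for loops in both Control lists ("members") and loops in 1 Control list only. Shared loops peak between 200 and 500 kb like the others and hold a larger share of loops of 10 to 20 kb (13.4%).

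Scores of the shared loops ranked alike in the 2 libraries only in part. Within chromosomes the score correlated with a Spearman rho of 0.40 and a Pearson r of 0.64 over 5073 loops, which all share the minimum of 5 and, in groups, a bait. Median mean score was 6.82 within chromosomes and 25.7 between chromosomes, and each of the 120 loops with a mean score over 100 joined different chromosomes.

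Of 19083 baits, 3555 (18.6%) had at least 1 shared loop within their chromosome and 489 (2.56%) at least 1 to another chromosome. With both kinds counted, 2732 baits had a single shared loop and 130 baits, called hubs here, had 5 or more, which is 0.681% of baits and held 16.5% of the shared loops. At the edge of that definition stood 95 baits with 4 shared loops and 40 with 5. Within chromosomes 63 baits (0.33%) reached 5, between chromosomes 64 did, and 0 baits reached 5 in both.

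Of all shared loops within chromosomes, 21.9% had another shared loop of the same bait to a touching region, and the longest row held 10 regions. Among the 359 listed from the baits that were hubs within their chromosome it was 53.2%, though a bait with few loops has less room for such a row. The promoter of Csnk2b, Gpank1 and Ly6g5b in the MHC class III region (chromosome 17, 35117333 to 35123194) ranked first with 20 shared loops, 17 of them to other promoters, over a median span of 79.4 kb. Csnk2b encodes the regulatory subunit of casein kinase 2. This bait had 26 intrachromosomal loops in Control replicate 1 and 27 in Control replicate 2, so most of each library's list was shared. Among the hubs named here it is the widest bait, and hub counts were not adjusted for bait width.

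Dll1, which encodes a Notch ligand, came next (chromosome 17, 15373880 to 15377096) with 12 shared loops, out of 13 in Control replicate 1 and 14 in Control replicate 2. All 12 lay on one side, toward and into the neighbouring gene Ermard, at 125 to 319 kb. The highest scoring joined the region from 15080001 to 15100000, which holds an end of Ermard, with scores of 23.6 and 16.0. In the depletion lists, which the choice of shared loops did not use, that contact scored 14.4 and 11.8 in Brg1KD and 20.5 and 18.1 in Ino80KD. The bait on Ermard had 9 shared loops, 1 of them with the Dll1 bait, at 285 to 423 kb. Of the 12 Dll1 loops, 7 and 10 were in the Brg1KD lists and 11 and 11 in the Ino80KD lists.

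**Figure D2:**
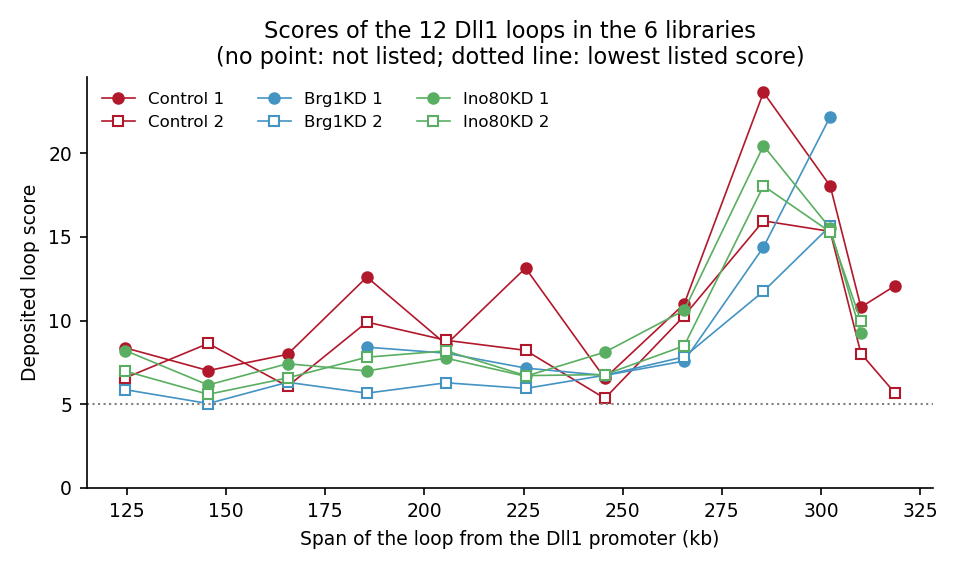
Deposited score (y) of each of the 12 shared Dll1 loops against its span (x, kb) in the 6 libraries, with no point where the loop was not listed and a dotted line at the lowest listed score. Scores in every library are highest at 285 or 302 kb.

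Efnb1, the gene of the membrane ligand ephrin-B1, had a comparable row on chromosome X: 7 shared loops at 374 to 534 kb, with the highest score at 434 kb in Control replicate 1 (23.5) and at 394 kb in Control replicate 2 (16.9). Of these, 7 and 6 were in the Brg1KD lists and 7 and 7 in the Ino80KD lists. Adamts15, a gene of a matrix protease, had 7 shared loops at 353 to 473 kb. Nup160, a gene of the nuclear pore, had 8 at 107 to 227 kb. Of these loops, 0, 0 and 1 ended on another bait at Efnb1, Adamts15 and Nup160.

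Histone promoters on chromosome 13 made a different kind of hub. The bait of H2ac10 and H3c8 had 12 shared loops with a median span of 1531 kb, and the bait of H2ac11, H2bc11 and H4c9 had 10 with a median of 1445 kb. Replication-dependent histone genes lie there in separate blocks, and the long loops joined one block to the other. H2ac10 reached the bait of H2ac13, H2bc13 and H3c10 at 1.82 Mb with scores of 7.44 and 9.72, and the bait of H2ac11 at 1.49 Mb with scores of 12.6 and 8.84. Zfp184, a zinc finger gene inside the region, and Btn1a1, a butyrophilin gene, each had 9 shared loops, with medians of 1465 and 1423 kb. The loops of the H2ac10 bait varied between libraries, with 25 and 15 within the chromosome in Control, so 12 shared loops were a smaller part of the first list than of the second.

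Promoters in repeated gene families were also among the hubs. The bait inside Zfp982 on chromosome 4 had 10 shared loops within the chromosome, with a median of 982 kb, among them contacts with regions at Zfp981 and Zfp992. Zfp993 and Zfp985 each had 7. Genes of that cluster are closely related, and the treatment of read pairs that fit several copies is not stated in the labels, so these values are uncertain. The same holds for the ribosomal RNA copies named Rn18s-rs5 below.

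The longest hub spans joined Cd207 and Clec4f to Il12rb2 on chromosome 6. Cd207 had 10 shared loops at a median of 16408 kb, Clec4f had 6 at 16406 kb and Il12rb2 had 9 at 16329 kb, pointing at each other's surroundings. The strongest joined Cd207 to a region at Il12rb2, with scores of 50.5 and 55.4 in Control, 27.5 and 30.4 in Brg1KD and 27.5 and 26.8 in Ino80KD. Further long contacts with high scores were those of Tjap1 with a region at Wtap on chromosome 17 (33.3 Mb; 59.0 and 19.6) and of Gm6685 with a region at Cyb5d1 on chromosome 11 (41.0 Mb; 65.6 and 26.3). The 10 longest shared loops were of 75.7 to 85.2 Mb, on chromosomes 1 and 8, from the baits of Mroh2a, Hjurp and Kars with Terf2ip. Those of Mroh2a and Hjurp had mean scores of 6.46 to 11.4. The bait of Gm6685 is named only by an RNA gene or pseudogene. How read pairs that fit several copies were treated is not stated in the labels, which limits all these long contacts. Whether copies gave rise to any of them was not tested.

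**Figure D3:**
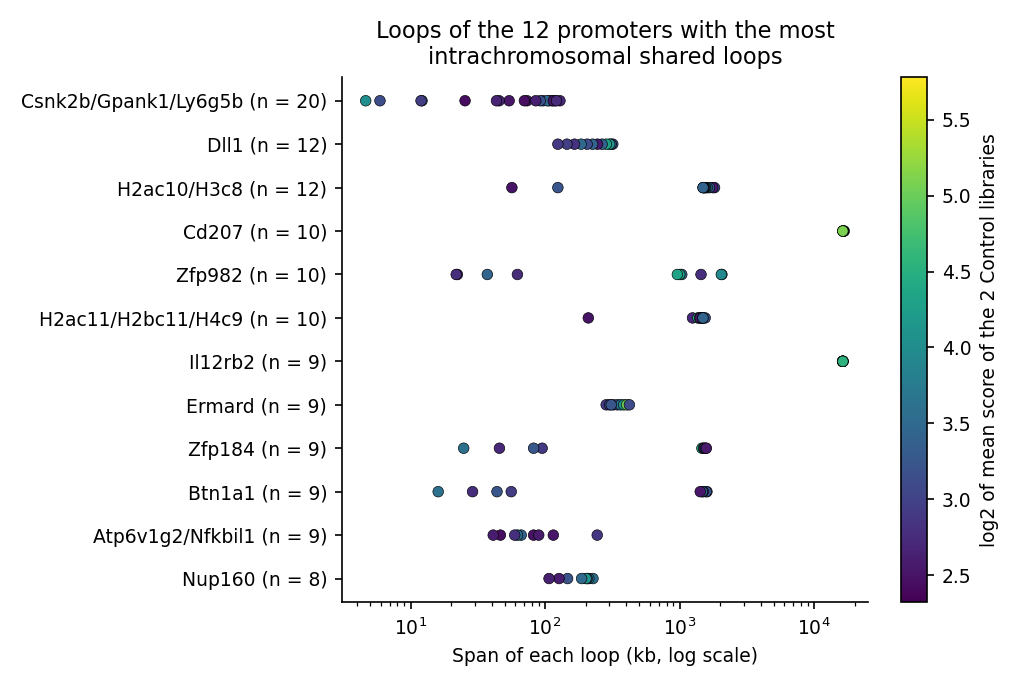
Span of each shared loop (x, kb, log scale) at the 12 promoters with the most shared loops within the chromosome, coloured by the log2 of the mean score of both Control libraries. Csnk2b loops lie under 130 kb, most histone loops near 1500 kb and the Cd207 and Il12rb2 loops near 16408 kb.

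Interchromosomal hubs had far higher scores and a narrow target. Their 64 baits held 592 of the 1187 interchromosomal shared loops, and at 48 baits every one of these loops went to 1 partner chromosome. At 46 baits every one lay within 1 Mb of the highest scoring end. Fau, with Mrpl49 on the same bait, had 22 shared loops to chromosome 2 over 0.519 Mb, with top scores of 679 and 600 at a region that holds ends of Ccdc9b and Inafm2. Haus7 had 17 to chromosome 3 over 0.520 Mb, with top scores of 764 and 770 inside Ank2, the ankyrin-B gene. The highest score of the map belonged to Trim7 and a region at Fam169a on chromosome 13 (956 and 810). It was 352 and 511 in Brg1KD and 854 and 1080 in Ino80KD. Rogdi with Glyr1 (21 loops, chromosome 5) and Mdh1 with Wdpcp (14, chromosome 9) had the same form. At 0 of the 64 baits did a partner region hold a gene named after the bait's gene. A copy of the gene under another name or without annotation would not be counted, so names cannot show whether copies lie there.

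A smaller number of interchromosomal hubs spread over the genome. The bait inside Sfi1, a centrosomal gene, had 29 such loops on 13 chromosomes, and that of Rn18s-rs5 had 23 on 12. The treatment of read pairs that fit several copies is not stated in the labels, so the values of both baits are uncertain. The same limit holds for the hubs with a narrow target, and whether copies gave rise to any of these loops was not tested. Baits named only by an RNA gene or pseudogene held an interchromosomal loop in 8.29% of cases, against 2.26% of baits named by the end of a protein-coding gene. Of the interchromosomal loops, 43.1% had a neighbour at a touching region, against 21.9% within chromosomes.

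Few shared loops had a bait at both ends, but how often an other end could be a bait was not computed. Loops to an unbaited region that holds a gene end are not counted here. Both ends were baits in 153 shared loops within a chromosome, 3.02% (95% Wilson interval 2.58% to 3.52%), against 5.05% and 3.72% of the loops in 1 Control list only. Intervals cover counting error only. They were short, with a median of 62.4 kb against 186 kb for loops to a region without a bait. They joined 234 baits into 90 groups, of which 70 were pairs. The largest group was the MHC class III region, with 25 baits and 29 loops over 243 kb, from Msh5 and Vars through Csnk2b and Bag6 to the cytokine genes Lta and Ltb. The histone group of chromosome 13 had 8 baits and 7 loops over 2038 kb. Irx3 with Irx5 and Irx1 with Irx2, neighbouring homeobox genes of the Iroquois family, made groups of 3 baits over 567 and 670 kb.

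Other ends without a bait were described by what RefSeq places there. Of all shared loops within chromosomes, 34.5% ended on a region that holds a gene end, 27.5% inside a gene and 34.9% between genes. Fragment size differs between such regions, so the comparison was repeated for the 3738 loops that end on a full 20 kb bin. Of these 30.6% held a gene end, against 25.5% and 24.2% for loops in 1 Control list and 21.1% of all 128563 bins. Shared loops were also shorter. Over ends of any size, the share with a gene end was 40.5% under 50 kb, against 40.0% and 38.2%. It was 36.3% against 33.6% and 34.5% from 50 to 250 kb, and 28.4% against 28.6% and 27.9% from 250 kb to 1 Mb. From 1 to 10 Mb it was 36.7% against 23.7% and 25.0%, and over 10 Mb 25.7% against 12.9% and 18.5%. The share between genes was 21.2% under 50 kb, 32.4% from 50 to 250 kb and 46.1% from 250 kb to 1 Mb. Up to 1 Mb, longer loops thus ended more often between genes, with loops of 1 list close to these values (22.3% and 22.3%, 31.1% and 30.3%, 42.8% and 43.1%). Beyond that the share was not higher, at 41.4% from 1 to 10 Mb and 40.0% over 10 Mb. On full 20 kb bins 39.1% of the shared loops ended between genes. This compares with 44.0% and 44.1% of loops in 1 Control list and 50.3% of all bins.

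Shared loops pointed slightly more often along the gene than against it. For 2649 loops whose bait has start sites on 1 strand only, 55.4% lay downstream of the start site (95% Wilson interval 53.5% to 57.3%), against 51.9% and 50.5% of loops in 1 list only. There were 1467 downstream and 1182 upstream. Of the downstream loops 267 reached the gene itself, and without them both counts were close. The interval covers counting error only and treats loops of 1 bait as independent, which they are not. From 1 to 10 Mb the downstream share was 43.8% of 121 loops, and over 10 Mb 76.9% of 39. Under 50 kb, 508 shared loops had a bait with start sites on 1 strand only. Of these, 40.2% lay downstream and ended inside the gene's own body or end. This compares with 32.9% and 28.2% of such loops in 1 list only. Shared loops to a region of the gene itself included those of Suz12, a polycomb gene, and of Smarcc2 and Arid1a, both BAF subunit genes. Ctcf and the pluripotency factor gene Klf2 had such a loop too. These spans, from middle to middle, were 11.0 to 20.1 kb. Some of these regions begin right after the bait. The Smarcc2 bait ends at 128459975 and its region begins at 128460001. For Klf2 the positions are 72319772 and 72320001.

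Gene classes at the promoter differed in how many of their baits had a shared loop, read against 18.6% of all baits. Hox genes, which pattern the body axis and are covered by polycomb in stem cells, had one at 28 of 53 baits (52.8%) and replication-dependent histone genes at 19 of 36 (52.8%). Imprinted genes followed with 42.1% of 38 baits, clustered protocadherins with 39.7% of 58, developmental regulators with 38.3% of 115 and keratin genes with 36.2% of 94. Zinc finger genes named Zfp were at 23.9% of 394. Lower values were those of ribosomal protein genes (15.5% of 84), olfactory receptor genes (11.7% of 1003) and vomeronasal receptor genes (9.38% of 192). In Control replicate 2 alone the receptor classes stood above all baits, at 55.5% and 48.4% against 43.6%, and in Control replicate 1 alone olfactory receptor genes did (50.6% against 46.4%). Of the primed epiblast markers 0 of 9 baits had a shared loop, though the libraries listed 9 and 4 loops there.

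**Figure D4:**
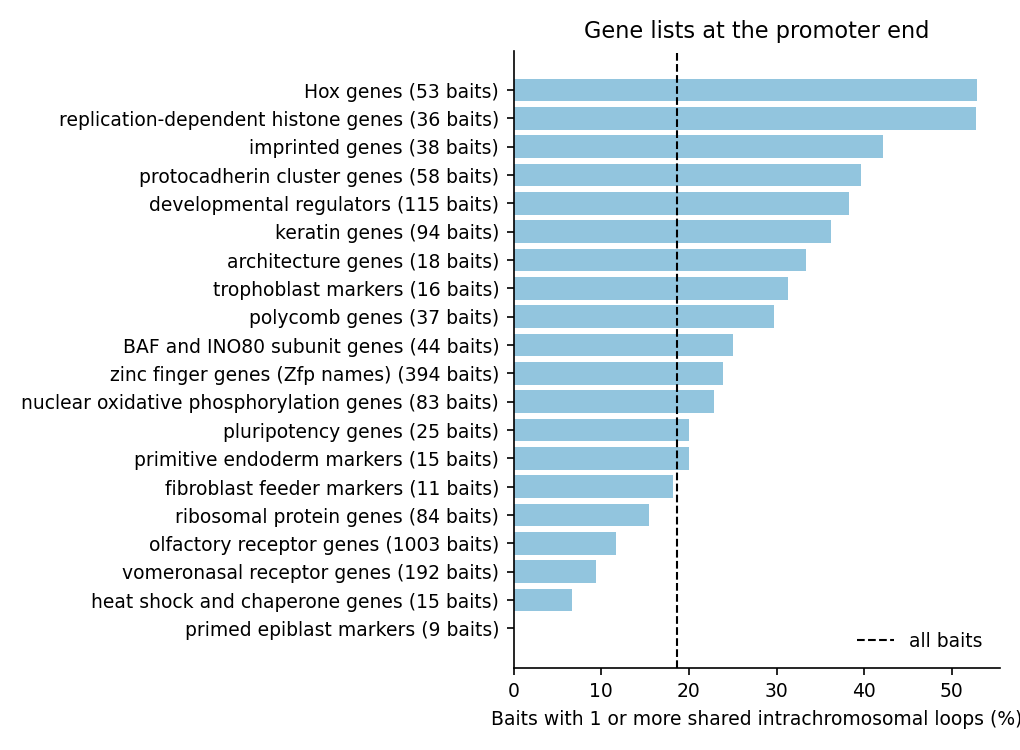
Percent of the baits of each gene list (x) with at least 1 shared loop within the chromosome, and the value for all baits (dashed line, 18.6%). Hox and histone genes stand at 52.8%, olfactory receptor genes at 11.7%.

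Classes also differed in the part of their listed loops that was shared. At olfactory receptor baits 853 and 946 loops were listed, of which 17.4% and 15.6% were shared, and at Hox baits 89 and 82, of which 61.8% and 67.1% were shared. Of the 54 shared loops of keratin genes, 34 ended on an unbaited region that holds the end of a keratin gene. Among them were those of Krtap17-1 to regions at Krt12, Krt20, Krt39 and Krt40 (463 to 584 kb). How many of the regions near keratin baits hold such an end was not counted. Histone loops were long, with a median of 1494 kb and 35 of 52 over 1 Mb.

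Hox promoters had 55 shared loops. Of these, 0 joined a pair of Hox baits and 0 ended on an unbaited region that holds the end of a Hox gene. How many unbaited regions near Hox baits hold such an end was not counted, so this 0 has no background. Loops between baits were 3.02% of all shared loops within chromosomes. Median span was 217 kb. The shortest named one, of Hoxc4 at 7.89 kb from middle to middle, ended beside Hoxc4 itself with scores of 6.33 and 5.32. Its bait ends at 103019673 and the region begins at 103020001. Hoxc4 had 9 shared loops from 2 baits and Hoxc10 had 4, and both met a region named by the repair gene Smug1, which lies beyond Hoxc4 as seen from Hoxc10. The Hoxc4 loop to the region from 103160001 to 103180000 on chromosome 15 scored 16.8 and 16.2 in Control, 12.7 and 15.1 in Brg1KD, and 15.4 and 14.7 in Ino80KD. Hoxd3 and Hoxd4 had 4 each, all to the surroundings of the noncoding gene 2600014E21Rik at 405 to 438 kb.

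Developmental regulators outside the Hox clusters looped to one another. Of their 64 shared loops, 17 joined different genes of the list, with a median span of 642 kb, and lay at 4 places. On chromosome 2, Foxa2, Pax1 and Nkx2-2, genes of endoderm, sclerotome and neural tube factors, were joined by 5 loops at 171 to 853 kb. On chromosome 12, Pax9 met Nkx2-1 in 3 loops and Foxa1 in 1, at 159 to 858 kb. On chromosome 13, Irx1, Irx2 and Irx4 were joined by 5 loops at 638 to 678 kb, and on chromosome 8, Irx3 and Irx5 by 3 loops at 545 to 567 kb. Loops of 1 place share baits or neighbouring regions and are not independent of each other.

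Individual values show these contacts. The loop of Foxa2 to the region of Nkx2-2 scored 21.9 in Control replicate 1 and 8.91 in Control replicate 2. It scored 18.3 and 13.7 in the Ino80KD libraries and was in neither Brg1KD list. The strongest Irx5 to Irx3 loop of Control replicate 1 scored 22.9 there and 10.2 in Control replicate 2, with 12.1 and 16.0 in Ino80KD and no entry in Brg1KD. The loop of Pax9 to the region of Foxa1 scored 11.1 and 12.7 in Control and 6.95 and 8.12 in Ino80KD, and it too was in neither Brg1KD list. One Irx2 loop, to a region beside Irx1 at 678 kb, was in all 6 lists, with scores of 9.92 and 9.49 in Control, 9.38 and 9.58 in Brg1KD and 10.3 and 15.7 in Ino80KD.

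Both Ino80KD lists held each of these 17 loops, and 15 of the 17 were in neither Brg1KD list (1 and 2 listed). Of the other 47 loops of developmental regulators, 25 and 28 were in the Brg1KD lists and 34 and 32 in the Ino80KD lists. Of all 5073 shared loops within chromosomes, 56.0% and 58.8% were in the Brg1KD lists and 66.2% and 62.2% in the Ino80KD lists, 1341 (26.4%) were in neither Brg1KD list and 296 (5.83%) were in both Ino80KD lists and neither Brg1KD list. The 17 loops were picked after their values were seen, and no test was made of them.

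Of 25 baits of pluripotency genes, 5 had 1 shared loop each (20.0%), close to the 18.6% of all baits. Pou5f1, the gene of Oct4, had a loop with a span of 17.1 kb from middle to middle. It scored 11.3 and 7.86 in Control and was in all 4 depletion lists at 8.77 or more. Nanog had one at 37.3 kb, with 6.93 and 5.96 in Control, 5.71 and 5.73 in Brg1KD and 8.39 and 6.84 in Ino80KD. That of Klf2 at 11.2 kb scored 5.71 and 7.39 and was in both Ino80KD lists (6.91 and 9.02) and in neither Brg1KD list. The single shared loop of Sox2, at 460 kb, scored 6.34 and 5.75 and was in 0 of the 4 depletion lists.

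Genes of other fates and of the depleted complexes were described in the same way. Sox17, an endoderm factor gene, had 2 shared loops to a region at Mrpl15, about 275 kb away, with scores of 9.13 to 10.6 in Control, and both were in all 4 depletion lists. Cdx2, a trophoblast factor gene, had 1 at 397 kb. Of 44 baits of BAF and INO80 subunit genes, 11 (25.0%) had a shared loop, among them Arid1a, Smarcc2, Ino80e and Tfpt with 2, 2, 2 and 3. Of 37 baits of polycomb genes 11 (29.7%) had one, against 18.6% of all baits. With scores of at least 7 both lists stood below all baits, at 4.55% and 5.41% against 5.58%, and with scores of at least 10 both were at 0.

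The depletion libraries, which played no part in choosing the loops, listed between 56.9% and 67.4% of all 6260 shared loops. In Brg1KD the share was 56.9% (95% Wilson interval 55.6% to 58.1%) in replicate 1 and 60.6% (59.4% to 61.8%) in replicate 2. In Ino80KD it was 67.4% (66.2% to 68.5%) and 63.4% (62.2% to 64.6%). As background, 23.4%, 25.1%, 29% and 26.5% of the loops in either Control list were in these 4 lists, and 12.6% to 20.4% of the loops in 1 Control list only. Both Brg1KD values lay below both Ino80KD values.

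The mean share was 58.7% ± 2.65 (SD, n = 2) in Brg1KD and 65.4% ± 2.80 (SD, n = 2) in Ino80KD. The difference of -6.69 percentage points had p = 0.33 in an exact two-sided permutation test, the smallest p that 2 against 2 libraries allow. Within batches it was -10.5 points in batch 1 and -2.83 points in batch 3. With the replicate number as a block the mean was the same and p was 0.5, the smallest that 2 pairs allow. The lists themselves differed in length, with 12254 and 12962 intrachromosomal loops in Brg1KD and 14675 and 14113 in Ino80KD. The part of list length in the share was not tested.

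Loops between promoters were listed at unlike shares in the depletions. Of 153, 47.1% and 50.3% were in the Brg1KD lists and 71.2% and 69.3% in the Ino80KD lists, a difference of -21.6 points (exact two-sided permutation p = 0.33, again the smallest possible). For histone genes the values were 34.6% and 44.2% against 57.7% and 71.2%, and for Hox genes 65.5% and 69.1% against 76.4% and 70.9%. Loops of 250 kb to 1 Mb were listed less often than short ones in every depletion library: 45.4% and 51.6% in Brg1KD and 56.0% and 50.8% in Ino80KD, against 66.5% and 69.2%, and 75.2% and 73.9%, under 50 kb. The share moved with the Control score too. Intrachromosomal loops with a mean Control score of 10 or more were found at 81.9% and 86.7% in Brg1KD and 90.9% and 89.0% in Ino80KD, and those under 7 at 44.8% and 45.9%, and 55.1% and 50.4%. In all 4 depletion lists stood 32.5% of the shared loops, and 11.6% were in none of them.

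**Figure D5:**
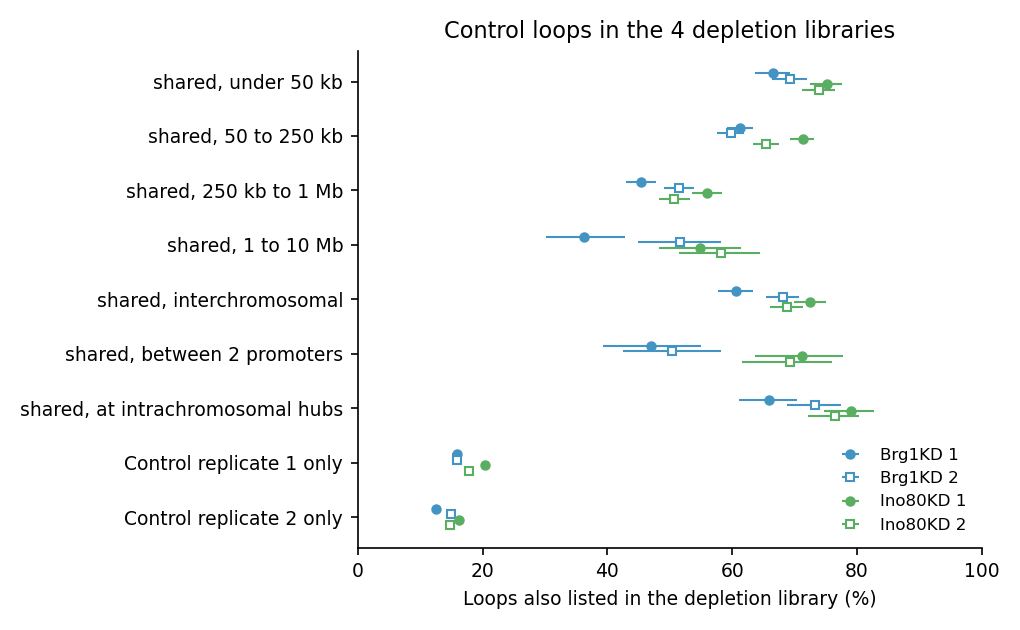
Percent of Control loops of each class (y) that each of the 4 depletion libraries also listed (x), with 95% Wilson intervals for counting error. Loops between 2 promoters stand at 47.1% and 50.3% in Brg1KD against 71.2% and 69.3% in Ino80KD, and loops of 1 Control list at 20.4% or less.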

How the data were processed

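Promoter-capture Micro-C was done on 6 libraries of E14 cells (3 groups of 2). Cells were crosslinked (disuccinimidyl glutarate and formaldehyde), their chromatin was cut by micrococcal nuclease, and joined pairs with promoters were captured, per the labels' protocols. The submitters' processing notes name mm10 and bedtools; the loop caller and the scale of its score are not given in the sources used here. The deposited score of each loop is thus the authors' own and was used to list, rank and describe loops. Read depth is unknown, so precision is given for counts of loops only.

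Loops with identical ends in both Control lists were taken with pandas 2.3.3 in Python 3.11.15. A loop between baits counts at both. Baits took the name of a protein-coding gene with an end on the bait, else within 2 kb, else around it, else of an RNA gene (RefSeq GRCm38.p6), so a name is a position, not proof of the active promoter. Intervals and the exact permutation test used scipy 1.17.1, and counting steps were tested on simulated data. Both depletions share replicate numbers because number 1 marks batch 1 and number 2 marks batch 3, per the labels.

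Loops and gene lists were chosen with earlier results of these data known. Named were the 25 baits with most shared loops, up to 4 genes per list, the 10 highest scoring and longest loops, the 10 largest bait groups and up to 10 interchromosomal loops. Ranking intrachromosomal hubs alone, loops between developmental regulators, the share of baits per list and the clipping of promoters to bases outside genes were added after values were seen. Some items that these rules name are not reported here.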

Additional observations from a re-analysis of the deposited data

How the results depend on the processing

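Matching both ends within 5 kb gave 8684 shared loops, 4.00% between baits, 269 hubs, and listed shares of 72.4% in Brg1KD and 77.6% in Ino80KD. Scores of at least 7 gave 2456 loops, a median span of 217 kb, 72 hubs and listed shares of 73.0% and 78.7%. Scores of at least 10 gave 1239 loops, 299 kb, 3.74% between baits, 54 hubs, 9 lists above all baits (14 in the main setting) and listed shares of 75.9% and 81.3%. Taking all loops of 1 Control library as the map (leaving out the other replicate) gave 17336 to 18042 loops, medians of 249 to 280 kb, 3.47% to 4.38% between baits, 547 to 592 hubs and 15 to 16 lists. Keeping the left-out bait, counting at the bait end only (114 hubs) and spans between nearest edges (173 kb) moved counts by less than 1.5 times, and spans and shares by less than the SD between the Control libraries. Naming by gene ends on the bait left 15 lists above all baits, with feeder markers changing side (18.2% to 28.6%). The replicate block left the difference between depletions at -6.69 points, and leaving out each depletion replicate gave -8.67 to -4.70 points.

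Of the 20 lists, 9 kept their side of the value for all baits with 5 kb matching, both score minimums, each Control library alone and naming by gene ends: Hox, histone, imprinted, protocadherin, developmental, keratin, zinc finger, trophoblast and ribosomal protein genes. Olfactory receptor genes were above it in either library alone, vomeronasal receptor genes in Control replicate 2 alone, and polycomb, BAF and INO80, pluripotency and architecture genes below it in at least 1 setting. The cause was not tested. With 2 libraries per group the smallest p was 0.33, and read counts were not used here.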

Other observations

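Other ends were shared between promoters. The shared loops within chromosomes ended on 3313 different regions, of which 883 were reached by 2 or more baits and 108 by 5 or more. The region of chromosome 13 from 23400001 to 23420000, which holds an end of Abt1, a gene of transcription and ribosome assembly, was reached by 17 baits, among them histone, butyrophilin and vomeronasal receptor promoters, at 14.3 to 1465 kb. On chromosome X the region from 74400001 to 74420000 at G6pdx, the gene of glucose-6-phosphate dehydrogenase, was reached by 14 baits, among them Flna, Emd and Irak1. A region at Ffar2 on chromosome 7, a receptor gene for short-chain fatty acids, was reached by 13, among them its neighbours Ffar1 and Ffar3 and genes named Fxyd. A region near Cd244a on chromosome 1 was reached by 12 baits, among them the related immune receptor genes Slamf1, Cd48, Cd84 and Ly9. One at Krt23 on chromosome 11 was reached by 11 baits of keratins and keratin-associated proteins, and one inside Tep1 on chromosome 14 by 11, among them the ribonuclease genes Ang, Rnase4 and Rnase9.

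Chromosomes differed in how many of their baits had a shared loop. Chromosome 7 had 27.3% of 1810 baits, chromosome 11 had 24.9% of 1585, chromosome 17 had 24.0% of 965 and chromosome 10 had 23.6% of 863. Chromosome 5 had 11.6% of 1040 and chromosome X 13.6% of 826. Median spans of shared loops were 120 kb on chromosome 17 and 132 kb on chromosome 11, and 439 kb on chromosome 13, where the histone loops lie.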
